A study of Mus musculus with 7 samples.

Results

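The Notch receptors, ligands and targets described here are 10 genes, chosen by symbol from the 24015 genes of a read count table of mouse haematopoietic stem cells (HSCs). They were the receptors Notch1, Notch2 and Notch4, the ligands Jag1, Jag2 and Dll1, the receptor-cleaving protease Adam10, the DNA-binding effector Rbpj, and the target genes Hes1 and Nrarp. All 10 were in the table, and 9 had enough counts to be tested, all but Dll1. HSCs of C57BL/6 mice were sorted from bone marrow as Lin- Sca-1+ c-Kit+ (LSK) cells that were CD150+ and CD48-, from old animals (3 libraries) and from young animals (4 libraries). The labels give no age in months, no sex and no treatment, and do not say whether a library came from 1 mouse or from a pool, so p-values measure only the spread between these samples, which may be technical. The comparison was old against young HSCs.

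Notch signalling passes between touching cells. A ligand of the Jagged or Delta-like family on one cell pulls on a Notch receptor on its neighbour, ADAM10 then cuts the receptor outside the membrane, and gamma-secretase releases its intracellular domain. That domain enters the nucleus, joins RBPJ and a Mastermind-like coactivator, and turns on targets such as Hes1, a repressor of the basic helix-loop-helix family, and Nrarp, which feeds back on the Notch complex. In blood formation the pathway is known for the emergence of HSCs in the embryo and for the T cell fate. Its ligands in the marrow are mostly attributed to endothelial and stromal cells.

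Libraries held 27369677 to 32401925 counts in old and 22203806 to 27146186 counts in young HSCs. Levels are CPM, counts scaled to library size with TMM factors, and 3 counts, the least taken as a level, were worth 0.0929 to 0.115 CPM in old and 0.104 to 0.137 CPM in young libraries, for counting error only. Young 1 and young 2 stood apart from the other libraries on the first and on the second principal component (scores of 220.9 and 196.9), and log2 fold changes of named genes that moved by over 1.5 times without both are given beside the gene. Of the sorted antigens, Kit, Ly6a (Sca-1) and Slamf1 (CD150) were counted in all 7 libraries. Cd48 was at 0 in old and at 1.87 to 24.5 CPM in young HSCs. Kit was at 136 to 332 CPM in old and 170 to 546 CPM in young HSCs. Ly6a was at 270 to 991 and 101 to 234 CPM, and Slamf1 at 102 to 278 and 60.6 to 99.2 CPM. The 10 HSC-defining markers, these 3 included, summed to 3296 to 3533 CPM in old and 1798 to 2856 CPM in young HSCs. Of the 10, 5 had every old library above every young one (7.55% of all tested genes), and 1 passed (edgeR adjusted p = 0.00643). Of the progenitor markers, Cd34 was at 85.2 to 135 CPM in old and 234 to 398 CPM in young HSCs and Flt3 was at 0 in old and at 0 to 36.2 CPM in young HSCs. The 5 progenitor markers, Cd48 included, summed to 85.2 to 135 CPM in old and 261 to 414 CPM in young HSCs, and 0 of the 3 tested passed with edgeR (lowest adjusted p = 0.0819) and 3 with DESeq2. The part of these HSC and progenitor differences in the member values was not tested. Lists of mature blood cells were counted in both groups. The T cell list summed to 6.72 to 53.6 CPM in old and 12.4 to 67.3 CPM in young HSCs, mostly from Lck, and the B cell list to 73.4 to 192 CPM in old and 122 to 185 CPM in young HSCs, mostly from Cd79b. The myeloid list summed to 885 to 1443 CPM in old and 729 to 1340 CPM in young HSCs, mostly from Lyz2, the erythroid list to 11.1 to 49.4 CPM in old and 71.6 to 109.9 CPM in young HSCs, and the megakaryocyte list, Pf4 among it, to 130.01 to 287 CPM in old and 271 to 475 CPM in young HSCs. Of the defining T cell and erythroid genes, Cd3e and Hba-a1 had no count in any library. The 10 stromal and osteoblast markers summed to at most 8.69 CPM in old and 5.92 CPM in young libraries. In bulk RNA, fewer cells of a type and less RNA per cell cannot be told apart.

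RBPJ binds DNA at sites with the core TGGGAA, so the sequences before the starts of the members are shown for the effector and for a target. Promoter windows from RefSeq (build GRCm38.p6, not the mm9 build of the counts) matched 9 of the 10 members by symbol, in 11 windows, all but Hes1. In the 250 bases before the start, on both strands, the core TGGGAA, or its reverse complement with the letters TTCCCA, stood in 2 of the 11 windows, both of Rbpj and overlapping each other, and in 21.6% of all 32851 windows of that length. The longer form GTGGGAA, which contains the core, stood in none of the 11 and in 5.42% of all windows. The Rbpj window at chr5:53590096-53590345 (plus strand) held a core in each orientation, starting 149 and 65 bases before the start, and is printed with these cores in capitals. The Nrarp window at chr2:25180508-25180757 (plus strand), shown because Nrarp is a target of the pathway, held none. A match is a description of letters, and no binding was measured.
Rbpj: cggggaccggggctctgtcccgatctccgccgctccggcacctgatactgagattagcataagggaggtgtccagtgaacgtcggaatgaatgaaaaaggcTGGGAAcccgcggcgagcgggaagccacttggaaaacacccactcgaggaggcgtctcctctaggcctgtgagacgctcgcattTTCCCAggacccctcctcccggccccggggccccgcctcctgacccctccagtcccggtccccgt
Nrarp: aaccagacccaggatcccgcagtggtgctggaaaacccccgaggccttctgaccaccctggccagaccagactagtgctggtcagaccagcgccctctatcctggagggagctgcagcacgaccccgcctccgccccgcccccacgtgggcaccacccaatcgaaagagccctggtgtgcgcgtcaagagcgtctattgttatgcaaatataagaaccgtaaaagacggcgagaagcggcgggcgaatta

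None of the 9 tested members differed between old and young HSCs past an adjusted p of 0.05 (edgeR quasi-likelihood test, adjusted over all 11506 tested genes), where 29 of all tested genes (0.252%) did. At an unadjusted p under 0.05 the members also counted 0, against 9.12% of all tested genes, and DESeq2 called 0 of the 9, against 3.81% of genes. The direction was mixed, with 4 of 9 members at a positive value, old over young, as for 48.5% of all tested genes (member median -0.16 on the log2 scale, against -0.03 for all). Hes1 was the only tested member whose old and young libraries did not overlap, as in 12.7% of all tested genes. Most members had few counts and a wide spread between libraries. The 95% intervals of the log2 fold changes spanned more than 4 log2 units for 7 of the 9, and only those of Adam10 and Rbpj were narrower.

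**Figure D1:**
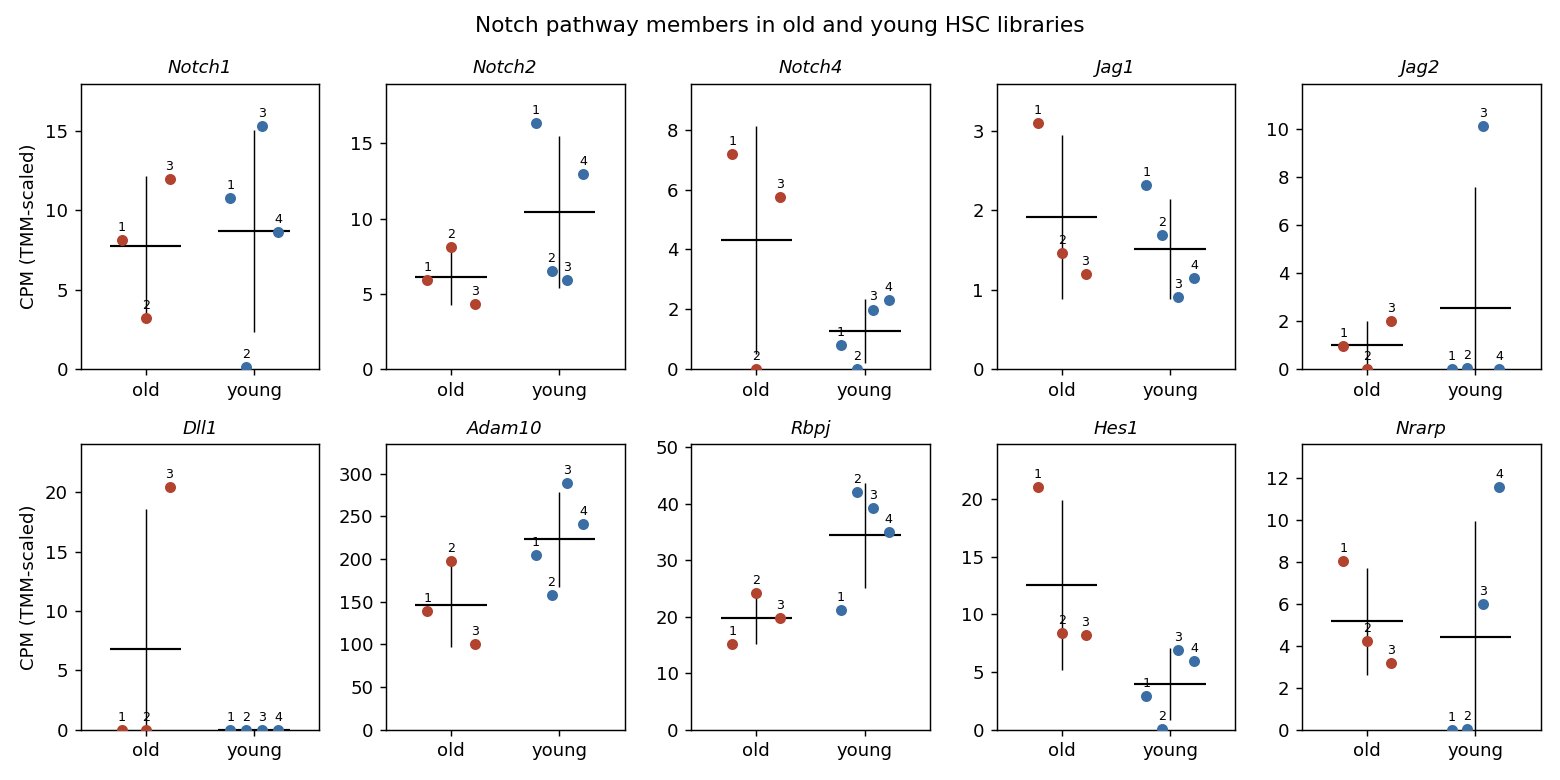
TMM-scaled CPM of each of the 10 members (a panel each, linear axis from 0) in 3 old (red, left) and 4 young (blue, right) HSC libraries; points are libraries with their replicate number, horizontal bars are means and vertical bars are SD. Old and young points interleave in all panels but Hes1, where the old libraries lie at 8.18 to 21.0 CPM and the young at 0.0913 to 6.94 CPM, and Dll1, counted in old 3 alone.

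Of the receptors, Notch1, the receptor that drives T cell specification, was counted in all 7 libraries. It had 8.16, 3.22 and 11.99 CPM in old 1, 2 and 3, against 10.8, 0.0913, 15.3 and 8.67 CPM in young 1, 2, 3 and 4. The old values lay within the range of the young ones, and young 2 held only 2 counts. The log2 fold change (old over young) was -0.16 ± 1.49 (SE, edgeR adjusted p = 0.993), with a 95% interval of -3.52 to 3.20. It was -0.57 without young 2 and -0.63 without young 1 and young 2, but 0.18 without old 2 and 0.26 without young 3.

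Notch2, a receptor known for its part in marginal zone B cell development in the spleen and in HSC self-renewal after injury, was counted in every library. It had 5.89, 8.08 and 4.34 CPM in old HSCs, against 16.3, 6.53, 5.89 and 13.0 CPM in young HSCs. The mean was 6.10 ± 1.88 CPM over the old libraries (SD, n = 3) and 10.4 ± 5.08 CPM over the young ones (SD, n = 4), and young 2 and young 3 lay among the old libraries. The log2 fold change was -0.77 ± 1.14 (edgeR adjusted p = 0.965).

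Notch4, a receptor known mainly from endothelium, was uneven within both groups. It had 7.18, 0 and 5.76 CPM in old HSCs, against 0.788, 0, 1.99 and 2.30 CPM in young HSCs. The old libraries 1 and 3 were above every young library, while old 2 and young 2 held no count. Old over young, the log2 fold change was 1.76 ± 2.20 (edgeR adjusted p = 0.945) with an interval of -3.19 to 6.72, and it was 1.01 without young 1 and young 2. The 12 endothelial markers summed to 340 to 454 CPM in old and 252 to 362 CPM in young HSCs, mostly from Egfl7 and Emcn, both of which HSCs also express. Of the more restricted markers, Cldn5 had 34.3, 11.3 and 64.0 CPM in old HSCs, against 12.9, 6.62, 0 and 0 CPM in young HSCs. Kdr had 4.04, 4.18 and 0 CPM in old HSCs, against 0.131, 0, 0 and 7.94 CPM in young HSCs. Pecam1 (66.8 CPM in young 4) and Plvap (6.14 CPM in young 3) were highest in a young library, and their groups overlapped. Cav1 was counted in old 2 alone and Flt4 in old 1 alone. Of the 12, 11 had a count in some library. Cdh5, Stab2 and Ptprb were at 0 in all old libraries and in all young ones but young 1, and Lyve1 was at 0 in all 7. The part of endothelial RNA in the Notch4 values was not tested.

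The make-up of the receptor pool varied widely within each group. Per kilobase of exon, Notch4 made up 44.3%, 0% and 36.5% of the summed level of the 3 receptors in old 1, 2 and 3, against 4.13%, 0%, 13.2% and 13.6% in young 1, 2, 3 and 4. Notch2 made up 27.2%, 76.8% and 20.5% in old and 63.9%, 98.95%, 29.2% and 57.4% in young HSCs. Notch1 made up 28.5%, 23.2% and 43.0% in old and 31.9%, 1.05%, 57.6% and 29.0% in young HSCs. These shares depend on the length used. Notch1 has 14.2 kb of exon and a longest transcript of 9.49 kb, and Notch2 has 10.8 and 10.5 kb. With the longest transcript, Notch1 ranked above Notch2 in mean level. The libraries with the highest Notch2 shares, old 2 and young 2, were also those with the least receptor RNA, at 0.976 CPM per kilobase in old 2 and 0.612 CPM per kilobase in young 2, against 1.87 to 2.37 CPM per kilobase in the others.

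**Figure D2:**
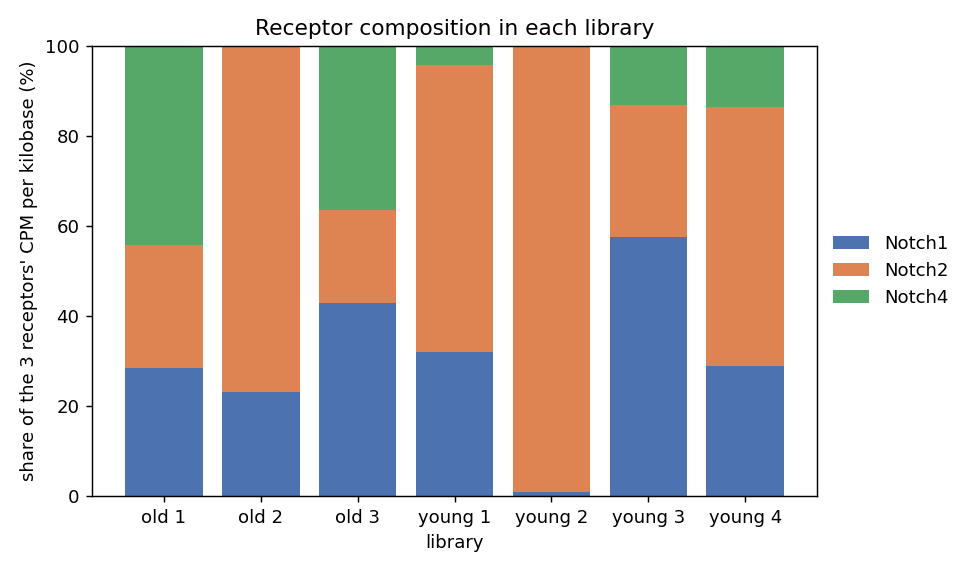
Share of Notch1, Notch2 and Notch4 in the summed CPM per kilobase of exon of these 3 receptors, in percent, for each of the 3 old and 4 young HSC libraries (stacked bars). Notch4 holds 44.3% and 36.5% in old 1 and old 3 and 0% in old 2 and young 2, where it had no count.

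The ligands differed in how many libraries had them. Jag1, the ligand that marrow endothelium and stroma are known for, was the one counted in every library, with 3.10, 1.45 and 1.19 CPM in old HSCs, against 2.32, 1.69, 0.903 and 1.15 CPM in young HSCs. All 7 libraries had counts, between 25 and 82, and the groups overlapped. In the fit, its log2 fold change was 0.34 ± 1.42 (edgeR adjusted p = 0.986), and it was -0.20 without old 1 and 0.90 without young 1 and young 2.

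Jag2, the other Jagged ligand, was counted well above the floor in old 1, old 3 and young 3. It had 0.944, 0 and 1.998 CPM in old HSCs, against 0, 0.0457, 10.1 and 0 CPM in young HSCs. Young 3 held 280 counts and the other young libraries 0 or 1, so the log2 fold change of -1.37 ± 2.80 (edgeR adjusted p = 0.976) rested on young 3, and it was -2.37 without young 1 and young 2. Dll1, a Delta-like ligand, had 532 counts in old 3 (20.4 CPM) and none in the 6 other libraries, and was not tested. Such single-library genes were not rare: 284 genes of the table had at least 100 counts in 1 library and none in any other, 47 of them in old 3. Annotated transcripts on the opposite strand overlap Dll1, Notch1, Notch4, Rbpj and Nrarp, and this kit does not mark strand, so their reads could not be separated.

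Adam10, the sheddase that makes the first, extracellular cut in a bound Notch receptor and also cuts many other membrane proteins, was by far the best covered member. It had 139, 198 and 99.9 CPM in old HSCs, against 205, 158, 289 and 241 CPM in young HSCs. The mean was 146 ± 49.3 CPM over the old libraries (SD, n = 3) and 223 ± 55.5 CPM over the young ones (SD, n = 4), and of the young libraries only young 2 lay below the highest old library. Its log2 fold change was -0.61 ± 0.31 with a 95% interval of -1.31 to 0.08, the smallest p of the members (unadjusted 0.0753) and an edgeR adjusted p of 0.625. Without young 2, after which the groups no longer overlapped, it was -0.75 (adjusted p = 0.344). It was -0.92 without old 2 (adjusted p = 0.427). Weaker values came without young 3 (-0.46, adjusted p = 0.894) and without old 3 (-0.40, adjusted p = 0.932).

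Rbpj, the DNA-binding partner of all Notch receptors and a repressor in their absence, was counted in every library. It had 15.2, 24.3 and 19.7 CPM in old HSCs, against 21.2, 42.2, 39.2 and 35.1 CPM in young HSCs. Young 1 fell among the old libraries and the other young libraries lay above all of them. The log2 fold change was -0.80 ± 0.61 (edgeR adjusted p = 0.848), with an interval of -2.18 to 0.58, and it was -0.98 without young 1 (adjusted p = 0.777). Processed pseudogenes of Rbpj (Rbpj-ps1 and Rbpj-ps3 in GENCODE) could take or lend reads, so its values are uncertain to that extent.

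Of the target genes, Hes1 was higher in every old library than in any young one, and still missed the threshold. It had 21.0, 8.42 and 8.18 CPM in old HSCs, against 2.93, 0.0913, 6.94 and 5.92 CPM in young HSCs. The mean was 12.5 ± 7.35 CPM over the old libraries (SD, n = 3) and 3.97 ± 3.09 CPM over the young ones (SD, n = 4), a ratio of 3.16 between the means. The gap between the groups was narrow, from 6.94 CPM in young 3 to 8.18 CPM in old 3, and old 1 stood well above both other old libraries. Old over young, the log2 fold change was 1.66 ± 1.44 (edgeR adjusted p = 0.892) with an interval of -1.59 to 4.91. It was 1.06 without old 1, 1.25 without young 2, where Hes1 had 2 counts, and 0.96 without young 1 and young 2. Over all tested genes, 7.55% had every old library above every young one.

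Nrarp is a small ankyrin repeat protein that limits Notch signalling. It had 8.04, 4.24 and 3.19 CPM in old HSCs, against 0, 0.0457, 6.00 and 11.6 CPM in young HSCs. The young libraries lay on either side of the old ones, with young 1 and young 2 at 0 and 1 counts and young 4 highest of all. In the fit, its log2 fold change was 0.23 ± 2.05 (edgeR adjusted p = 0.993), and it was -0.25 without old 1, -0.19 without young 1, -0.18 without young 2 and -0.77 without young 1 and young 2.

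Young 2 was the library in which most members had few or no counts. Of the 7 tested members with a mean under 10 CPM, Notch1, Notch4, Jag2, Hes1 and Nrarp held at most 2 counts there, against 0, 2 and 0 such members in old 1, 2 and 3 and 2, 0 and 1 in young 1, 3 and 4. Over all 2900 tested genes with a mean under 10 CPM, 41.2% held at most 2 counts in young 2. The log2 fold changes above that are given without young 2 kept their sign for Notch1, Adam10 and Hes1, while that of Nrarp turned.

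**Figure D3:**
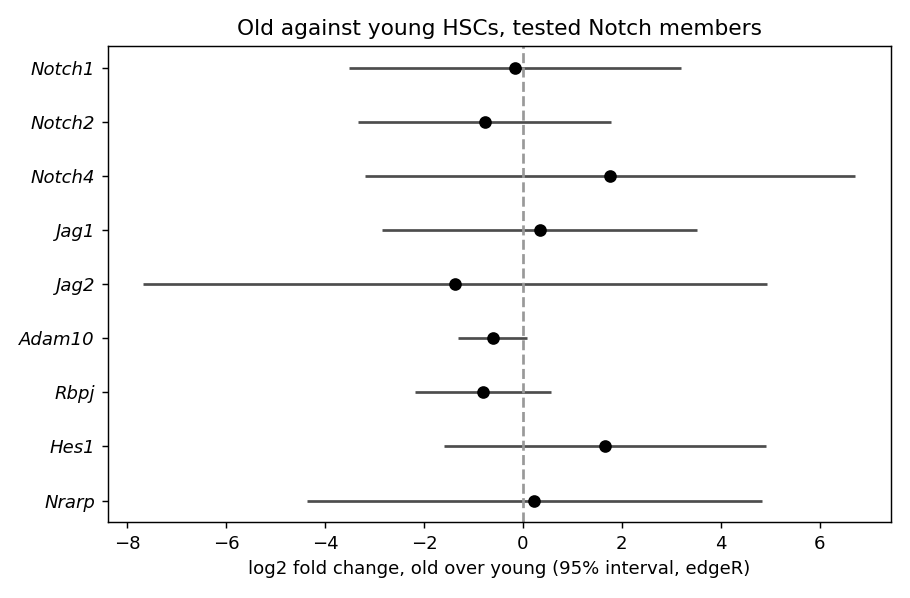
Log2 fold change, old over young HSCs, of the 9 tested members (points) with 95% intervals (lines) from the edgeR fit over all genes; the dashed line marks no difference. All 9 intervals include 0, and that of Adam10 is the narrowest, at -1.31 to 0.08.

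Levels of different genes are comparable only per kilobase of exon (exon lengths from GENCODE M21, another annotation than that of the counts). Averaged over the 7 libraries, the order was Adam10 (38.6 CPM per kilobase), Hes1 (3.75), Rbpj (2.21), Nrarp (1.83), Notch2 (0.796), Dll1 (0.692), Notch1 (0.584), Notch4 (0.319), Jag1 (0.289) and Jag2 (0.269). Adam10 was the only member set apart from its neighbour, with 20.3 to 58.8 CPM per kilobase against 0.0448 to 10.3 CPM per kilobase for Hes1. Every other pair of neighbours in the order overlapped across libraries. The order also differed between the groups: Nrarp (1.998 CPM per kilobase) was above Rbpj (1.55) in old HSCs, and Rbpj (2.70) was above Hes1 (1.95) in young HSCs. The place of Dll1 rests on old 3 alone. With the longest transcript as the length, only 5 members kept their rank, Adam10, Hes1, Rbpj, Nrarp and Notch4.

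**Figure D4:**
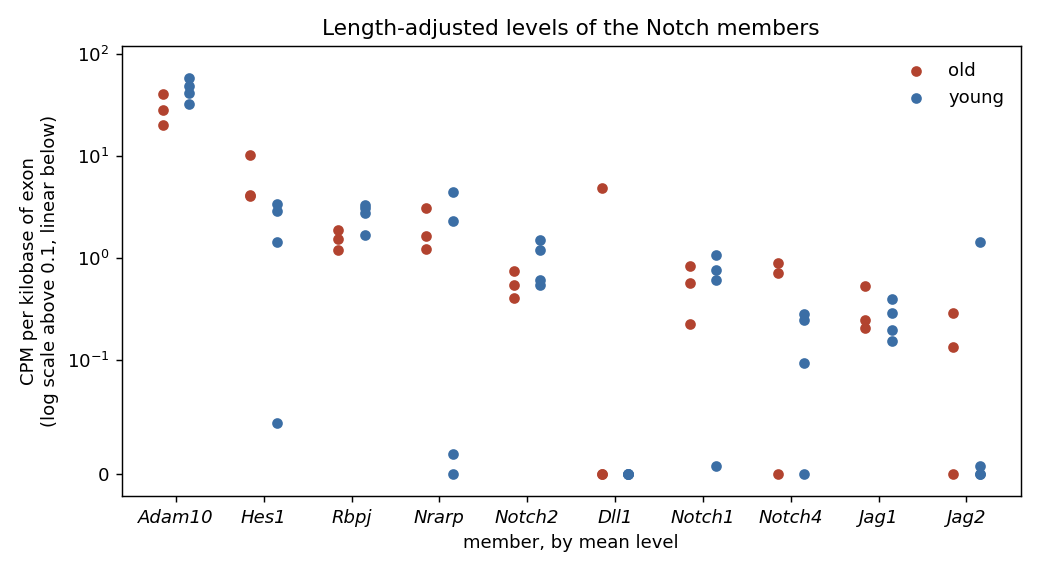
CPM per kilobase of exon for the 10 members in 3 old (red, left of each pair) and 4 young (blue) HSC libraries, ordered by mean level; the axis is logarithmic above 0.1 and linear below. Adam10 lies at 20.3 to 58.8 CPM per kilobase, above all values of the other members, and Hes1 spans 0.0448 to 10.3.

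Pattern across libraries was described by Pearson's correlation of log2 CPM over the 7 libraries with every other tested gene of at least 50 CPM. For Adam10 the closest of 4509 genes were Gna15 (r = 0.981), a G protein alpha subunit of blood cells, Nucb1 (r = 0.977), a calcium-binding Golgi protein, and Flna (r = 0.965), an actin crosslinker. For Notch2, the receptor with the highest mean CPM over the 7 libraries (8.58, against 8.32 for Notch1, which was the higher of both in old HSCs), they were Sh3kbp1 (r = 0.972), an endocytic adaptor, Arfgef1 (r = 0.960), an exchange factor for ARF GTPases, and Rbm17 (r = 0.954), a splicing factor. Such values, over 7 libraries and picked from so many genes, carry no test, and all genes share the depth and quality of each library.

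Around the members, 90 other genes of the pathway, listed by role, gave 73 tested genes, of which 0 were called higher and 0 lower by edgeR over all genes (0.235% and 0.0174% of all tested genes). At an unadjusted p under 0.05, 2 were higher and 6 lower in old HSCs (4.62% and 4.49% of all tested genes). Of the 73, 12 (16.4%) had groups that did not overlap in CPM, 6 with old higher (7.55% of all tested genes) and 6 with old lower (5.18%). Among those with old lower, Mib2 separated by a small margin, with 5 counts each in old 1 and young 1. DESeq2 called 2 higher and 2 lower (1.9% and 1.91% of genes). The median log2 fold change was -0.02, against -0.03 over all tested genes.

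Mastermind-like coactivators bridge the Notch intracellular domain and RBPJ to the transcription machinery. Maml2, 1 of the 4 genes called by DESeq2, had 23.8, 24.3 and 32.5 CPM in old HSCs, against 222, 110.3, 80.7 and 55.7 CPM in young HSCs. Every young library lay above every old one. Its log2 fold change was -2.13 ± 0.51 (edgeR adjusted p = 0.164), and it passed with DESeq2 (adjusted p = 0.00341). It also passed in an edgeR fit to genes averaging 50 CPM or more (adjusted p = 0.0432). Maml2 averaged 26.9 CPM over the old and 117 CPM over the young libraries. It met that filter only through the young ones, so this pass is no separate support. Without young 1, the highest library, the log2 fold change was -1.61 (adjusted p = 0.289). Without young 1 and young 2 it was -1.35 (adjusted p = 0.271). The other members of the family were low, with Maml1 at 4.31 ± 3.76 CPM over the old libraries and 6.40 ± 5.69 CPM over the young ones (edgeR adjusted p = 0.986). Of the 8 tested coactivators, 2 were at a positive value (median log2 fold change -0.75). The acetyltransferases Crebbp (log2 fold change -1.74, adjusted p = 0.927) and Kat2a (-0.98, adjusted p = 0.915) did not pass. Crebbp was at -5.19 without old 2 and -1.03 without young 1, and Kat2a at -0.54 without old 2 and -1.62 without young 1 and young 2.

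Corepressors, which hold RBPJ targets silent without Notch, made up 20 tested genes, 7 of them at a positive value (median log2 fold change -0.35). At an unadjusted edgeR p under 0.05, 1 was higher and 4 were lower in old HSCs, 25% of the 20 against 9.12% of all tested genes. Fhl1, whose KyoT2 isoform is known in mouse to bind RBPJ, had 189, 214 and 267 CPM in old HSCs, against 70.7, 37.8, 119.9 and 55.1 CPM in young HSCs. The groups did not overlap, with a log2 fold change of 1.66 ± 0.38 (edgeR adjusted p = 0.159), and it passed with DESeq2 (adjusted p = 0.00721). The counts are per gene and do not separate the isoforms. The histone deacetylase Hdac1 was at 154 ± 28.0 CPM over the old libraries (SD, n = 3) and 254 ± 65.8 CPM over the young ones (SD, n = 4; edgeR adjusted p = 0.381), and Rbbp8, a DNA end resection factor that also binds CtBP, 29.2 ± 1.63 and 61.0 ± 13.9 CPM (adjusted p = 0.454).

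Among antagonists and turnover factors, 13 were tested, 4 of them at a positive log2 fold change (median -0.33). Groups did not overlap for 4 of the 13 (30.8%, against 12.7% of all tested genes), 2 in each direction. At an unadjusted edgeR p under 0.05, 1 was higher and 0 were lower in old HSCs. Itch, a ubiquitin ligase that targets Notch for degradation, had 87.4, 81.4 and 98.8 CPM in old HSCs, against 32.4, 42.0, 42.6 and 46.5 CPM in young HSCs. Both groups were tight and did not overlap, with a log2 fold change of 1.13 ± 0.34 (edgeR adjusted p = 0.261; DESeq2 adjusted p = 0.0414). Aak1, a kinase of endocytic adaptors (log2 fold change -1.60, adjusted p = 0.670), and the deltex relative Dtx3l (-0.78, adjusted p = 0.718) had separate groups in the other direction.

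**Figure D5:**
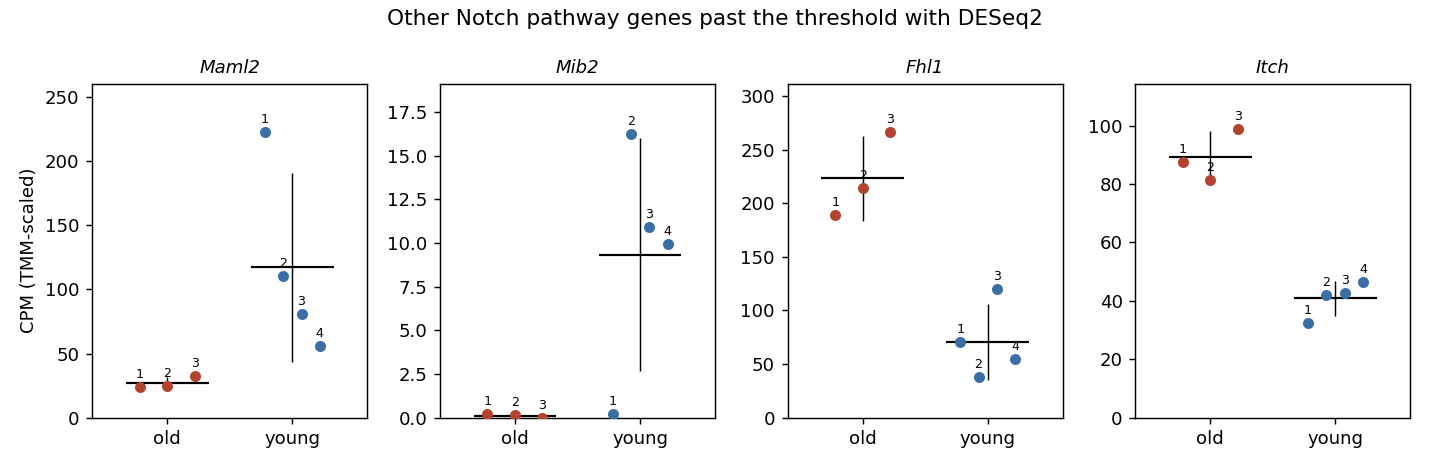
TMM-scaled CPM of the 4 other Notch pathway genes past the threshold with DESeq2, in 3 old (red, left) and 4 young (blue, right) HSC libraries; points carry replicate numbers, horizontal bars are means and vertical bars SD. Maml2 and Mib2 are lower and Fhl1 and Itch higher in old HSCs, and none passed with edgeR over all genes (adjusted p of 0.159 to 0.360). Mib2 passed the count filter only through young 2, 3 and 4.

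Among the enzymes that modify receptors and activate ligands, 11 were tested, 8 of them at a positive log2 fold change (median 0.48). Mib2, a ubiquitin ligase that drives ligand endocytosis, had 0.189, 0.124 and 0 CPM in old HSCs, against 0.219, 16.3, 10.9 and 9.92 CPM in young HSCs. Young 1, with 5 counts, was at the old level, and the other young libraries were well above it (edgeR adjusted p = 0.360; DESeq2 adjusted p = 0.00633). Mib2 passed the count filter only through young 2, 3 and 4. It was not tested when any of these was left out alone, so both p-values rest on them. The glucosyltransferase Poglut1 was at 140 ± 27.7 CPM over the old libraries and 89.3 ± 69.2 CPM over the young ones (edgeR adjusted p = 0.908), and its log2 fold change of 0.64 was -0.09 without young 1 and young 2. The fucosyltransferase Pofut1 had a log2 fold change of -0.77 (adjusted p = 0.934), which was -0.34 without old 1 and -1.75 without old 2.

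Of the 9 tested genes of receptor cleavage, 0 had an unadjusted p under 0.05 and 7 were at a positive log2 fold change (median 0.39). Psen2, a catalytic subunit of gamma-secretase, was at 125 ± 31.6 CPM over the old libraries and 87.9 ± 27.6 CPM over the young ones (edgeR adjusted p = 0.809), and its log2 fold change of 0.51 was 0.29 without young 1 and young 2. Aph1c, another gamma-secretase subunit, was at 35.3 ± 4.56 CPM over the old libraries and 13.9 ± 10.6 CPM over the young ones, and its groups did not overlap (adjusted p = 0.874).

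Of the other receptors and ligands, only Dll4 and Dlk1 were tested. Dll4, the Delta-like ligand of thymic epithelium and endothelium, had 0, 1.92 and 10.2 CPM in old HSCs, against 0, 0, 1.16 and 0.731 CPM in young HSCs (edgeR adjusted p = 0.873). Dlk1, an imprinted non-canonical ligand, was at 5.21 ± 5.60 CPM over the old libraries and 5.03 ± 6.51 CPM over the young ones (adjusted p = 0.996), and its log2 fold change of 0.05 was 0.85 without young 1 and young 2. Notch3 had 45, 64 and 1 counts in old HSCs, against 3, 0, 0 and 1 in young HSCs, too few to be tested.

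Of the other target genes, 10 were tested, 0 with an unadjusted p under 0.05 and 6 at a positive log2 fold change (median 0.54). Hey1, Hey2 and Dtx1, further direct targets of Notch, and Tcf7, a T cell factor, had no count in any library. Hes5, a relative of Hes1, had 5.40, 0.124 and 0.538 CPM in old HSCs, against 0, 0.365, 2.78 and 0.0696 CPM in young HSCs. Gata3, a T cell and HSC transcription factor, was at 69.7 ± 19.4 CPM over the old libraries and 44.4 ± 18.4 CPM over the young ones (edgeR adjusted p = 0.828), and its log2 fold change of 0.65 was 0.23 without young 1 and young 2. Hes6, a relative that opposes Hes1, was at 90.1 ± 11.7 CPM over the old libraries and 108.6 ± 14.9 CPM over the young ones (adjusted p = 0.915). Cdkn1a, the inhibitor p21, had 14.0, 13.6 and 9.26 CPM in old HSCs, against 0, 0, 4.77 and 4.21 CPM in young HSCs, with separate groups (log2 fold change 2.45, edgeR adjusted p = 0.884), and the log2 fold change was 1.45 without young 1 and young 2.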

How the data were processed

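Sorted HSCs (3 old and 4 young libraries) were sequenced after Smart-seq+ cDNA synthesis and Nextera XT library construction, per the labels' protocols. The authors deposited unscaled read counts, 1 column per library, by gene symbol. Trimmomatic, FastQC, STAR, featureCounts and build mm9 are named in the submitters' processing notes (versions, annotation, strandedness: not given in the sources used here). Counts are per gene, not per isoform. Groups came from the sample titles. The fit used edgeR 4.0.16 in R 4.3.3 (filterByExpr with minimum count 10 and minimum total 15, 11506 genes; TMM; quasi-likelihood F test, 2-sided, group only, Benjamini-Hochberg over all tested genes, threshold 0.05). SE was taken as |log2 fold change| over the root of F, and 95% intervals use the fit's degrees of freedom. CPM are relative to scaled totals of tested genes. Alternatives were DESeq2 1.42.0, limma 3.58.1 (voom, with and without sample weights), other scalings and filters, a replicate block and left-out libraries. Every pair of libraries differed beyond sampling noise. The procedure was tested on simulated counts. The changes were planted in better covered genes only, so this test cannot speak for the members with a mean under 10 CPM. Members and lists were chosen with earlier results of these data known. Named genes are all members, the 3 genes of each other list with the smallest p (some genes are not reported here), and the 3 closest in pattern to Adam10 and Notch2; Maml1, Hes5, Notch3, Cldn5, Cd34, Flt3, Lck, Cd79b and genes at 0 were added after their values were seen.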

Additional observations from a re-analysis of the deposited data

Results flagged for a closer look

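Among the 29 genes with a spread in the 4 young libraries that were checked for a library far from the rest, 2 had one, and chance gives about 1 in 20. Jag2 had 10.1 CPM in young 3 where its 3 fellow young libraries had 0 to 0.0457 CPM, a gap of 0.995 of the range. Hdac1 had 352 CPM in young 1 where the rest had 208 to 228 CPM, a gap of 0.859 of the range.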

How the results depend on the processing

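No member was called under any of the 18 alternatives to the edgeR fit in which it was tested. The number of called genes over the whole table, 29 with the fit reported, was 431 with DESeq2, 50 with limma-voom, 92 with sample weights, 16 with library size alone (which moved the median log2 fold change of all genes to -0.12), 130 with a mean of at least 50 CPM, 0 with the replicate block in edgeR (694 at an unadjusted p under 0.05), 7 without both young 1 and young 2, and 2 to 18 without 1 library. Of the other pathway genes, 4 were called with DESeq2 and 1, Maml2, with a mean of at least 50 CPM. Maml2 met that mean only through its young libraries. DESeq2 called Mib2 (log2 fold change -6.50), Maml2 (-2.15), Fhl1 (1.64) and Itch (1.11), and at a mean of at least 50 CPM that of Maml2 was -2.19. Mib2 was tested only through its counts in young 2, 3 and 4. Signs turned for Notch1 with limma-voom (0.72) and the replicate block (0.97), and without old 2 (0.18) or young 3 (0.26). They turned for Notch4 with sample weights (-0.57), and for Jag2 with limma-voom (1.21) and sample weights (0.94). Without 1 library they turned for Jag1 without old 1 (-0.20) and for Nrarp without old 1 (-0.25), young 1 (-0.19) or young 2 (-0.18). The sign of Dlk1 turned without old 3 (-1.34), young 1 (-0.36) or young 4 (-0.29). Those of Nrarp (-0.77) and Poglut1 (-0.091) turned without young 1 and young 2. Without 1 library, or without both young 1 and young 2, log2 fold changes ranged from -0.63 to 0.26 for Notch1, -0.20 to 0.90 for Jag1, -0.77 to 1.35 for Nrarp, -1.34 to 1.42 for Dlk1 and -0.09 to 1.08 for Poglut1. With the longest transcript, 5 members kept their rank by level. The causes were not tested. Replicate numbers are shared, but nothing in the labels pairs them: deviations of same-numbered libraries correlated at 0.0254, -0.0745 and -0.0136, and of the 6 libraries compared young 1 alone correlated best with its own number, so the block result is not read as a weaker effect. At these depths 3 counts, the least taken as a level, correspond to 0.0929 to 0.137 CPM, for counting error only. Values from 1 or 2 counts lie below it. A gene at 0 in 1 library could hold many counts in another, as for the 284 single-library genes.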
